A study of Danio rerio with 19 samples.

Results

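RNA of germ ring embryos, taken as gastrulation begins, was set against RNA of 1k-cell embryos, taken in the blastula. Both are whole zebrafish embryos of the Tubingen strain with no stated mutation or treatment, and each stage is 1 library, so 2 of the 19 samples of the series enter the comparison. The series also profiled gametes and earlier embryos. Of its 4 RNA libraries, egg is used below to say whether poly-A RNA of a gene was already counted there. Sperm enters 1 count of genes, the choice among entries of a repeated name, and the check for names with identical values. A low egg count does not show that a transcript was absent, since RNA without a poly-A tail is not selected. Poly-A RNA was sequenced from extracts of whole embryos, so no tissue was separated, and fewer cells of a type and less RNA per cell cannot be told apart. Of the 14244 gene names in the tables, 10917 reached a normalized count of at least 10 in either library and were compared.

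An early fish embryo runs on RNA and protein that the mother placed in the egg. Its own genome is largely silent through the first rapid divisions and is switched on around the midblastula transition, near the 1k-cell stage, when maternal factors of the Nanog, Pou5f3 and SoxB1 families act on the first zygotic genes and much of the maternal RNA begins to be cleared. By germ ring, cells at the margin move inward as mesoderm and endoderm, the organizer patterns the back of the embryo, and an outer enveloping layer and a yolk syncytial layer have separated from the deep cells.

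Reads recovered from the values summed to 14753999 at germ ring and 24256918 at 1k-cell over all gene entries, and copies may share reads. A read was worth 1.51 normalized counts at germ ring and 0.951 at 1k-cell, so a count of 0 reads allows up to 3 reads, or 4.52 normalized counts at germ ring and 2.85 at 1k-cell. With 1 library a stage there is no replicate, no test and no p-value, and every difference is between these libraries. Genes are called at least 2-fold higher or lower from log2 of the ratio of normalized counts plus 1. Brackets after a fold give the exact 95% interval of the ratio of reads, which covers counting error only. A fold against 0 reads is a bound set at 3 reads and does not carry the counting error of the higher value. The counts were not divided by gene length, so values are compared within a gene and not between genes. Marker lists of exocrine pancreas, muscle, liver, red blood cells and testis summed to between 31.6 and 417 normalized counts at germ ring and between 18.1 and 471 at 1k-cell. The ovarian follicle list summed to 5858 at germ ring and 10036 at 1k-cell, nearly all of it from cyp11a1 (3541 and 4459) and cyp17a1 (2233 and 5533), which act in steroid synthesis.

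At germ ring 1742 genes (16.0%) were higher by at least 2-fold and 3732 (34.2%) lower, which left 5443 (49.9%) within 2-fold. Both directions counted, 5474 genes (50.1%) were called. Counts of list members given below are to be read beside these shares. The median log2 ratio was -0.43. Median-of-ratios scaling, called rescaling below, raised germ ring over 1k-cell by 0.41 on the log2 scale, and by less for genes near 0, where the pseudocount weighs. It gave a median of -0.03 and called 2315 genes higher and 2749 lower. The sides differed in reach. Of the higher genes, 1117 were at least 4-fold, 572 at least 16-fold and 125 at least 256-fold higher. Of the lower genes, 1457 were at least 4-fold and 54 at least 16-fold lower, and none reached 256-fold. No read at 1k-cell was recorded for 208 of the higher genes, and 729 were under 10 there. Genes under 10 at 1k-cell passed the floor only through germ ring and could not be called lower. Of them 729 were called higher and 65 lay within 2-fold. At germ ring, 50 of the lower genes had no read and 400 were under 10. Genes under 10 at germ ring passed the floor only through 1k-cell and could not be called higher. Of them 400 were called lower and 56 lay within 2-fold. Both limits hold for every list below, also where they are not repeated.

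The genes called higher made up 26.3% of the germ ring total and 5.56% of the 1k-cell total. Those called lower made up 10.6% of the germ ring total and 34.3% of the 1k-cell total. Of the lower genes 3300 (88.4%) were at 10 or more in the egg, close to the 4960 (91.1%) of the genes within 2-fold. Of the higher genes, 1043 (59.9%) were at 10 or more in the egg, 524 (30.1%) were under 10 in both egg and 1k-cell embryos, and 205 (11.8%) were at 10 or more in the egg but under 10 at 1k-cell. Of the higher set, 148 were under 10 in egg, 1k-cell and sperm alike.

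**Figure D1:**
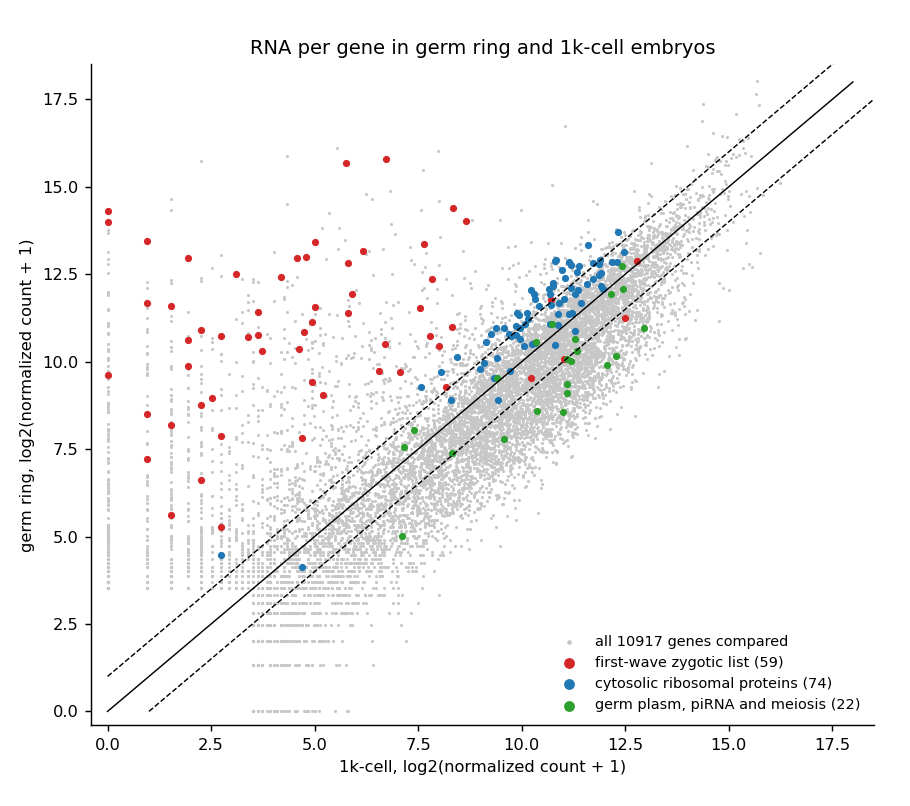
Normalized count of each gene, as log2(count + 1), at germ ring (vertical axis) and at 1k-cell (horizontal axis). The solid line marks equal values and the dashed lines 2-fold. Of the 59 first-wave zygotic genes 55 lie above the upper dashed line, the 74 ribosomal protein genes lie around that line, and the 22 germ plasm, piRNA and meiosis genes lie between the dashed lines and below them.

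The genes with the highest ratios had few reads at 1k-cell. The T-box gene tbx16, the ubiquitin ligase adaptor asb11 and the keratin krt92 (listed as zgc:109868) led, with 20401, 16356 and 14058 at germ ring and no read at 1k-cell. The bounds of asb11 and krt92 were at least 5734-fold and at least 4929-fold higher. The cytokeratin gene cki, the keratin krt18a.1 (listed as krt18), the adhesion gene alcamb, the claudin cldne and the sulfotransferase sult6b1 followed, each with 7919 or more at germ ring and 3.80 or less at 1k-cell. Rounding out the 20 highest were stm, foxa3, ctsll, tbxta (listed as ntla), sox32, prickle1b, evpla (listed as si:ch211-157f15.1), krt4, crabp2b, plekhf1, hmgn6 (listed as fb06f03) and cyt1. Of these 20 genes, krt4 was the highest at 1k-cell, with 60446 at germ ring and 19.0 at 1k-cell.

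Most of the genes with the lowest ratios had under 100 normalized counts at 1k-cell. The polymerase gene tent5bb (listed as fam46bb) had no read at germ ring and 55.1 at 1k-cell, at least 12.2-fold lower. The retinal homeobox gene vsx1 had no read at germ ring and 54.2 at 1k-cell, at least 12.0-fold lower, and the bile acid receptor nr1h4 no read and 43.7, at least 9.68-fold lower. The best measured of the 20 lowest were b4galnt1a, which acts in ganglioside synthesis, with 25.6 at germ ring and 717 at 1k-cell (28.0-fold lower, 17.4 to 48.3), and the melatonin receptor mtnr1aa, with 9.04 and 256 (28.3-fold lower, 12.8 to 77.8). The others, kcng1 (listed as zgc:172103), tlx1, slc13a2, sh2d3cb, nxf1a, socs1b, cfap58, cd209, irx2a, phyhiplb, slc8a4a, eya4, pthlha, trim35-24 and ehf, all stood under 10 at germ ring.

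The list of maternal activators and related factors did not move as a block. Of its 20 genes, 5 were at least 2-fold higher at germ ring (25%) and 10 lower (50%), against 16.0% and 34.2% over all genes. The median log2 ratio was -0.95. Not all members were abundant in the egg. Among the higher ones, sox19a, mych and yy1a had 79.4, 226 and 133 there, against a list median of 1317. Pou5f3 (listed as pou5f1) had 80736 at germ ring and 41838 at 1k-cell, a log2 ratio of 0.95 that became 1.35 after rescaling. Nanog (listed as zgc:193933) had 35206 at germ ring and 77955 at 1k-cell, 2.21-fold lower (log2 -0.74 after rescaling). The SoxB1 gene sox19b had 6745 at germ ring and 48352 at 1k-cell, 7.17-fold lower (6.95 to 7.39). Its relative sox19a had 19485 at germ ring and 39.9 at 1k-cell, 488-fold higher (361 to 677). The 2 SoxB1 genes thus differed in direction between the libraries. Only sox19b had more than 100 normalized counts in the egg (3674, against 79.4 for sox19a).

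Relatives in other families of this list also differed in their ratios. The zinc finger gene yy1a had 7646 at germ ring and 160 at 1k-cell, while yy1b had 3500 and 5890. The myc gene mych had 24977 at germ ring and 254 at 1k-cell, 98.4-fold higher, while mycb had 479 and 1342, 2.80-fold lower. The insulator gene ctcf (84280 and 38641) and foxh1, a partner of Nodal Smads (16739 and 7930), were the other higher members. The lowest ratios belonged to smad2, which carries the Nodal signal (1621 at germ ring and 14187 at 1k-cell, 8.75-fold lower), sox19b, and the T-box gene eomesa (1912 and 12691, 6.64-fold lower). The histone acetyltransferase crebbpa (887 and 5814) was 6.55-fold lower.

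Genes listed as transcribed around the midblastula transition were nearly all higher. In this first-wave list 55 of 59 members were at least 2-fold higher (93.2%, against 16.0% over all genes) and 1 was lower. The list was chosen with earlier results of these data known, so its share is not independent of them. Its median log2 ratio was 6.27. The list's median count was 7.94 in the egg, 25.7 at 1k-cell and 1927 at germ ring. In the egg 19 members had no read and 27 were at 10 or more. At 1k-cell 22 members were under 10, so they were compared only through germ ring. Tbx16, asb11 and tbxta had the highest ratios. The lipoprotein gene apoeb had 52943 at germ ring and 53.2 at 1k-cell (994-fold higher, 766 to 1317), the small heat shock gene hspb1 had 57198 and 105 (547-fold, 454 to 666), and the RNA polymerase III subunit polr3gla had 8014 and 2.85 (2810-fold, 961 to 13629).

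The list also holds relatives that differed at 1k-cell, and genes that were near level. The apelin receptor aplnrb had 3886 at germ ring and 58.9 at 1k-cell, while its relative aplnra had 783 and no read. The lowest ratios belonged to the FGF antagonist il17rd (2444 at germ ring and 5820 at 1k-cell, 2.38-fold lower, log2 -0.85 after rescaling), klf6a (listed as copeb, 1079 and 2067) and the signal wnt8a (744 and 1188). In the egg il17rd had 2217, klf6a 524 and wnt8a 961.

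Nodal signals, which induce mesoderm and endoderm, are grouped here by role, with groups drawn after values were seen. The 2 ligand genes ndr1 and ndr2 and the 2 Lefty antagonist genes were higher. Of 6 Activin-type receptor and Smad genes none was higher, 5 were at least 2-fold lower and acvr1ba (listed as acvr1b) lay within 2-fold; the co-receptor tdgf1 and the ligand gdf3, described below, stand outside these groups and do not follow them. The ligand ndr1 had 850 at germ ring and 93.2 at 1k-cell (9.12-fold higher) and ndr2 had 499 and 4.75 (105-fold, 44.5 to 325). The Lefty antagonists lft1 (1263 and 12.4) and lft2 (1324 and 23.8) were 102-fold and 55.7-fold higher. Of the signal transducers, smad3a (73.8 and 333) and smad3b (64.8 and 485) were 4.51-fold and 7.48-fold lower, beside smad2, and the activin receptor acvr2aa (listed as acvr2a, 738 and 3444) was 4.66-fold lower. Acvr2ba (listed as acvr2b, 4975 and 10890) was 2.19-fold lower and fell within 2-fold after rescaling (log2 -0.72).

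Over the whole Nodal list, 12 of 20 genes were higher and 6 lower (median log2 ratio 2.57). A target led it: sox32, needed for endoderm, had 4042 at germ ring and no read at 1k-cell or in the egg (at least 1417-fold higher). The co-receptor gene tdgf1 (listed as oep, 10622 and 2702) was 3.93-fold higher, while the maternal partner ligand gdf3 (listed as dvr1, 18694 and 31005) was within 2-fold.

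**Figure D2:**
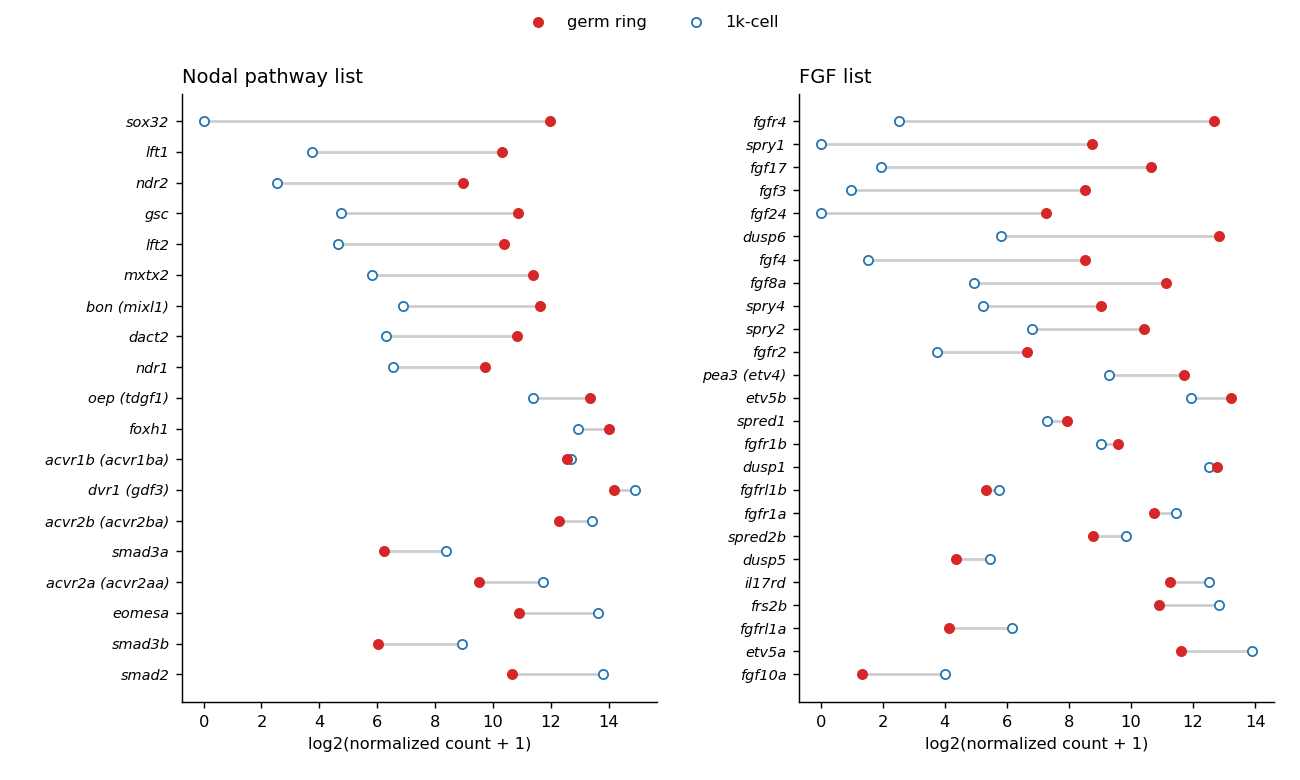
Level of 19 of the 20 compared members of the Nodal list and of all 25 of the FGF list, as log2(normalized count + 1), with filled points for germ ring and open points for 1k-cell. Rows run from the highest log2 ratio at the top to the lowest; sox32 and fgfr4 head the lists, and smad2 and fgf10a stand at the foot.

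Of 10 compared endoderm genes 9 were higher at germ ring and none was lower (median log2 ratio 5.83). Under 10 at 1k-cell were 6 of the 10, which were thus compared only through germ ring and could not be called lower. Over all 12 listed endoderm genes the median was 1128 at germ ring and 1.90 at 1k-cell. Foxa3 had 7036 at germ ring and no read at 1k-cell (at least 2467-fold higher), gata5 had 2519 and 1.90 from 2 reads (1325-fold, 366 to 10948), and sox17 67.8 and 1.90 from 2 reads (35.7-fold, 9.31 to 303). The lowest ratios were those of sox17, hnf1ba (1787 and 97.0) and the peroxiredoxin prdx5 (218 and 122.6), which was within 2-fold.

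Of 27 compared mesoderm and tail genes, 18 were higher and 3 lower (median log2 ratio 5.12). Of the 27, 10 were under 10 at 1k-cell, so they were compared only through germ ring and could not be called lower. Another 11 listed genes were under 10 in both libraries. The even-skipped homeobox gene eve1 had 1767 at germ ring and no read at 1k-cell (at least 620-fold higher). The notochord gene noto (listed as flh) had 3402 and 15.21 (224-fold, 137 to 392), and msgn1, of the presomitic mesoderm, had 450 and 88.4 (5.09-fold). The repressor snai1a was near level (8684 and 7777) with 11996 in the egg, while snai1b had 76.8 and no read in either 1k-cell embryos or the egg. The lower genes were foxc1b, evx1 and etv2, whose values at germ ring were 3.01, 69.3 and 0, against 18.1, 359 and 10.5 at 1k-cell.

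In the organizer and head list 18 of 22 genes were higher and 4 lower (median log2 ratio 4.84). Of the 22, 7 were under 10 at 1k-cell and could not be called lower. Rx3, 1 of the lower genes, fell within 2-fold after rescaling. The BMP antagonist chordin (chrd, listed as chd) had 5835 at germ ring and 7.61 at 1k-cell (767-fold higher, 389 to 1778). The forkhead gene foxd5 had 4689 and 20.9 (224-fold), goosecoid (gsc) 1849 and 25.7 (72.0-fold), and the Wnt antagonist dkk1b 1356 and 21.9 (62.0-fold). The lower genes were the forebrain and eye regulators six3a (7.53 at germ ring and 129 at 1k-cell), foxg1a (6.03 and 57.0) and rx3 (6.03 and 16.2), and the gene listed as otx1b and now named otx1 (1602 and 15672, 9.79-fold lower). Only otx1 among them was above 10 at germ ring.

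BMP signals pattern the ventral side. Of 6 compared ligand genes 4 were higher: bmp2b (2745 at germ ring and 11.4 at 1k-cell, 241-fold), bmp4 (292 and 1.90), bmp7a (3456 and 55.1, 62.7-fold) and admp (933 and 3.80). The genes bmp7b (4.52 from 3 reads and 31.4, 6.94-fold lower, 2.18 to 35.4) and gdf6a (105 and 817, 7.74-fold lower) were lower. Of 10 extracellular regulators and feedback genes 7 were higher and 1 lower, and the pair bambia (10222 and 916) and bambib (16.6 and 162) differed in direction. Of 9 receptor and Smad genes 3 were higher and 1 lower. The higher ones, bmpr2b, smad1 and bmpr2a, reached no more than 19.6 at germ ring, and the abundant effector smad5 was within 2-fold (13200 and 19920).

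Over the whole ventral and BMP list, 20 of 35 genes were higher and 6 lower (median log2 ratio 1.84). Of the 35, 10 were under 10 at 1k-cell and could not be called lower. The ventral homeobox repressors vent, ved and vox had 3281, 8220 and 9126 at germ ring and 0.951, 26.6 and 71.3 at 1k-cell, with no read in the egg. The direct target id1 had 20908 at germ ring and 188 at 1k-cell (111-fold higher), whereas id2a had 711 and 3210 (4.51-fold lower). The lowest ratios were those of bmpr1ba (289 and 2201), gdf6a and bambib.

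In the Wnt list 21 of 44 compared genes were higher and 10 lower (median log2 ratio 0.72). Of 11 Frizzled receptor genes 7 were higher and 2 lower, where 16.0% of all genes were higher and 34.2% lower. Of 14 genes for co-receptors and intracellular transducers 1 was higher and 6 lower. After rescaling 2 of the 14 were higher and 3 lower, beside 2315 and 2749 of all 10917 genes. The share of lower genes among these 14 is not read as particular to their role. Fzd2 had 375 at germ ring and no read at 1k-cell, fzd7a 8859 and 204 (43.3-fold higher), and fzd7b 20026 and 13121, within 2-fold. The receptor fzd5 was the lowest of the list, with 264 and 3028 (11.5-fold lower, 9.86 to 13.5), followed by wnt10b (6.03 and 48.5) and nkd2b (listed as nkd2, 13.6 and 94.1).

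The convergence signal wnt11 had 9656 at germ ring and 99.8 at 1k-cell (96.7-fold higher), and the planar polarity gene prickle1b had 3994 and no read (at least 1400-fold), while prickle1a had 562 and 945. The Wnt target sp5l (1927 and 3.80) came next in the list after prickle1b. Of the beta-catenin genes, ctnnb1 had 38252 and 18718 (2.04-fold higher), and the maternal ctnnb2 31728 and 52519. The nuclear effector lef1 (783 and 3686) and the scaffold axin1 (5685 and 17646) were 4.70-fold and 3.10-fold lower.

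FGF genes gave 13 of 25 higher and 7 lower (median log2 ratio 1.3), or 14 and 4 after rescaling (median 1.71). Of 6 compared ligands 5 were higher: fgf17 (1583 at germ ring and 2.85 at 1k-cell), fgf3 (363 and 0.951), fgf24 (151 and no read), fgf4 (362 and 1.90) and fgf8a (2233 and 29.5, 75.8-fold). The remaining ligand, fgf10a, had 1.51 from 1 read and 15.21. Of the 6 ligands 4 were under 10 at 1k-cell, so they were compared only through germ ring and could not be called lower. Of the receptors, fgfr4 had 6572 and 4.75 (1382-fold higher, 592 to 4260) and fgfr1a 1718 and 2778, within 2-fold. Feedback inhibitors were mixed. Spry1 (431 and no read), dusp6 (7315 and 55.1), spry4 and spry2 were higher, and il17rd, dusp5 and spred2b were 2.38-fold, 2.18-fold and 2.11-fold lower, all 3 within 2-fold after rescaling. The FGF-responsive factor etv5b had 9650 and 3921 (2.46-fold higher), and etv5a had 3119 and 15412 (4.94-fold lower), which left etv5a, fgf10a and the receptor-like fgfrl1a (16.6 and 71.3) as the lowest.

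In the Notch list 21 of 28 genes were higher and 4 lower (median log2 ratio 3.47). Under 10 at 1k-cell were 10 of the 28, which were compared only through germ ring and could not be called lower. They include 5 of the 7 ligand genes and 5 of the 14 repressor genes below. Of 7 ligand genes 6 were higher, led by dld (1357 at germ ring and 1.90 at 1k-cell from 2 reads, 714-fold, 197 to 5904) and dlc (1329 and 4.75). Of 14 her, hes and hey repressor genes 13 were higher, among them hes6 (1773 and 13.3), the segmentation clock genes her1 (1092 and 53.2, 20.5-fold) and her7 (943 and 125, 7.57-fold), and the midbrain gene her5 (1454 and 103). The exception, hey2, had 60.3 and 379. Of 6 receptor and rbpj genes only notch3 was higher (1644 and 18.1, 91.0-fold), and notch1b, notch2 (922 and 3040) and rbpjb (449 and 1672) were lower. Hey2, rbpjb and notch2 were the lowest of the list.

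**Figure D3:**
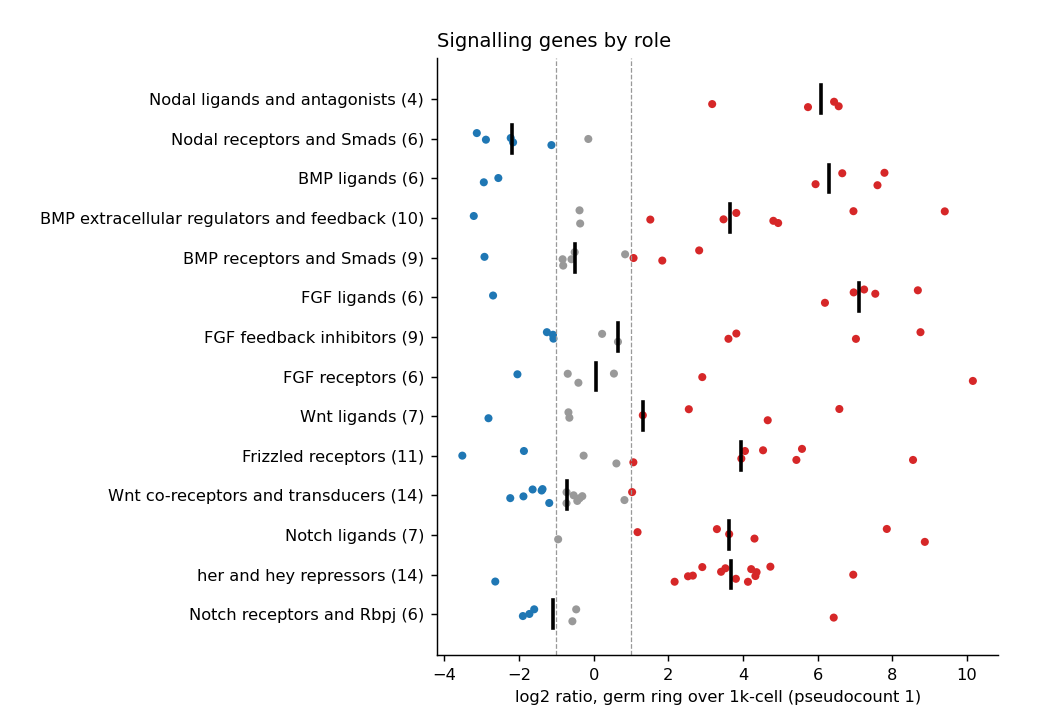
Log2 ratio of germ ring over 1k-cell for compared Nodal, BMP, FGF, Wnt and Notch genes that were placed in a role group. Numbers of genes are in brackets. Groups were drawn after values were seen, and some listed genes, such as gdf3, tdgf1 and foxh1, stand outside them. Black bars are medians, dashed lines mark 2-fold, and colours mark genes higher (red), lower (blue) and within 2-fold (grey). Ligand medians, with antagonists included for Nodal, run from 1.32 (Wnt) to 7.11 (FGF). Receptors with their Smads or Rbpj have medians of -2.19 (Nodal), -0.51 (BMP) and -1.08 (Notch). The FGF receptor median is 0.07 and the Frizzled median 3.96.

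Retinoic acid genes, which here include enzymes, carriers and receptors, were higher in 6 of 12 cases and lower in 3 (median log2 ratio 0.70). The carrier crabp2b had 2912 at germ ring and no read at 1k-cell (at least 1021-fold higher), the synthesis enzyme aldh1a2 had 205 and 0.951, and the reductase dhrs3b 208 and 20.9. The 3 lower genes were all receptors: rxrga (1.51 from 1 read and 47.5, 31.6-fold lower, 5.41 to 1271), rarga (82.9 and 435) and rarab (3586 and 7397). Rarab fell within 2-fold after rescaling (log2 -0.64). Hox genes, which pattern the trunk later, were near the floor: 35 of 48 were under 10 in both libraries. Of the 13 compared none was higher and 8 were lower (61.5%, against 34.2% over all genes). All 13 were at 10 or more at 1k-cell. Those under 10 at germ ring, such as hoxd13a (3.01) and hoxd11a (6.03), were compared only through 1k-cell and could not be called higher. The median log2 ratio was -1.74. The highest, hoxb1b, had 15.07 at germ ring and 15.21 at 1k-cell, followed by hoxc12a and hoxc3a, and the lowest were hoxd13a, hoxd11a and hoxd12a (10.5 and 102).

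Genes of the outer enveloping layer and non-neural ectoderm were higher in 29 of 38 cases and lower in 3 (median log2 ratio 5.68). All 10 compared keratins were higher, with a median of 13652 at germ ring and 0.951 at 1k-cell. Of the 38 genes 18, and of the keratins 7, were under 10 at 1k-cell and compared only through germ ring. Krt18a.1 had 54807 at germ ring and 3.80 at 1k-cell (14412-fold higher, 5628 to 52896), krt4 60446 and 19.0 (3179-fold), krt8 66146 and 252 (263-fold) and krt5 25968 and 82.7 (314-fold). The ectodermal regulators gata3 (3718 and 18.1) and tfap2c (3526 and 18.1) were 206-fold and 195-fold higher. The ectodermal factor tp63 (72.3 and 271, 3.75-fold lower) was among the lower ones. So was dlx4b (3.01 from 2 reads and 10.5 from 11 reads), 3.47-fold lower with an interval of 0.757 to 32.2, which includes no change. The adhesion gene cdh1 was within 2-fold (16166 and 20074).

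Claudins, the strand proteins of tight junctions, moved both ways. Taking every gene named as a claudin, of which those outside the surface layer list were added after their values were seen, 10 of 18 were higher and 7 lower, or 10 and 4 after rescaling. Cldne had 25974 at germ ring and 1.90 at 1k-cell from 2 reads (13660-fold higher, 3781 to 112804), cldnb 3340 and 9.51 (351-fold), and cldnf 1814 and no read. Cldnd had 7062 and 46330 (6.56-fold lower), cldng 4398 and 29802 (6.78-fold lower), and cldn7b 21714 and 17239, within 2-fold.

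Several of these genes were not low in the egg. Among the 38, 13 were at 10 or more in the egg yet under 10 at 1k-cell. Krt5 had 109093 in the egg, 82.7 at 1k-cell and 25968 at germ ring. Krt4 had 5146, 19.0 and 60446 at those stages, cldnb 1856, 9.51 and 3340, and cldni 2403, 0 and 12.1. In the egg library recovered reads summed to 9241829, the fewest of the 3. Whether cells around the egg contributed to this library was not tested.

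**Figure D4:**
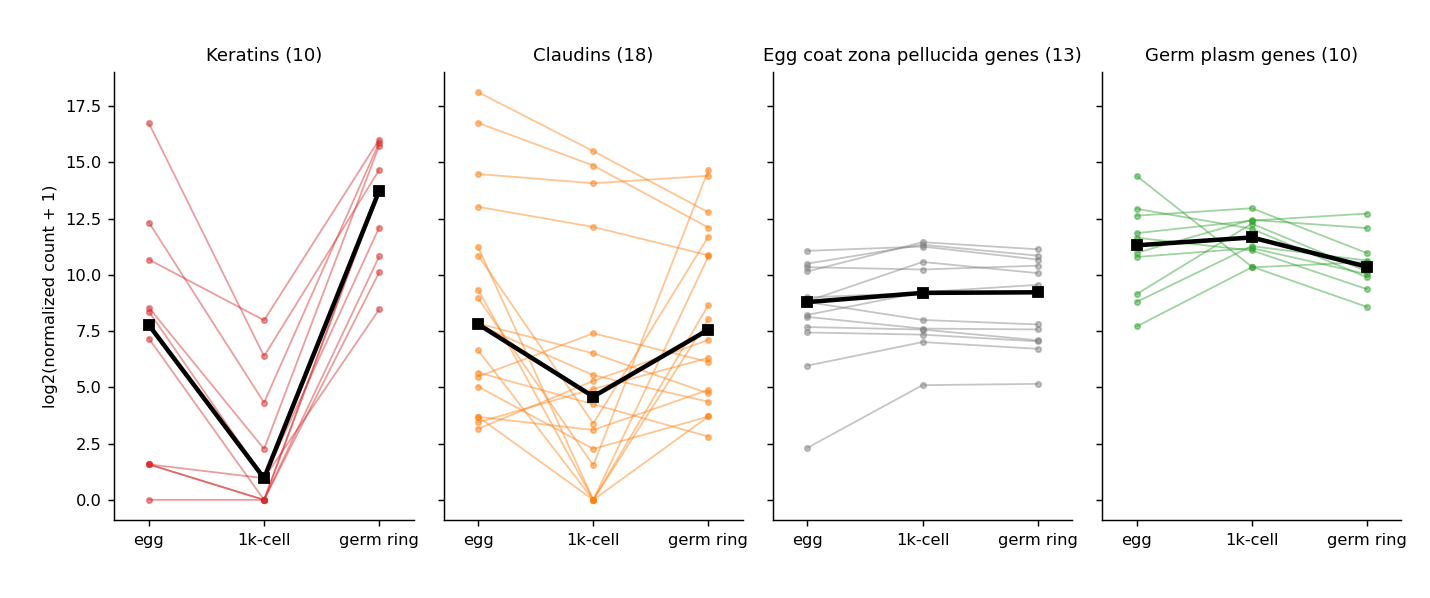
Levels of 4 gene groups as log2(normalized count + 1) in the egg, 1k-cell and germ ring libraries, 1 library a stage; thin lines are genes, black squares medians, and the number of genes is in brackets. The median keratin stands at 236 in the egg, 0.951 at 1k-cell and 13652 at germ ring, claudins run in both directions, the zona pellucida genes stay nearly level after the egg, and the germ plasm genes have a lower median at germ ring than at 1k-cell.

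Neural ectoderm genes were higher in 21 of 36 cases and lower in 10 (median log2 ratio 2.46). Besides sox19a, the homeobox gene gbx1 had 297 at germ ring and no read at 1k-cell, and the zinc finger gene zic2b had 30151 at germ ring and 111 at 1k-cell. The SoxB1 genes sox3 (21507 and 321, 66.9-fold higher) and sox2 (773 and 8.56, 90.3-fold) were also higher. Of the SoxC genes, sox11a had 12754 and 122 (105-fold higher), while sox11b was level (28292 and 28144). The lowest were pou3f3a (82.9 and 904, 10.9-fold lower), otx1 and sox1a (1.51 and 21.9).

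The yolk syncytial layer is a layer of nuclei in the yolk cell that feeds the embryo. Of 18 compared genes listed for it, 15 were higher and 3 lower (median log2 ratio 5.75). Of the 18, 12 were under 10 at 1k-cell and so compared only through germ ring. Another 5 listed genes were under 10 in both libraries. The gene afp4 (listed as zgc:161979) had 2142 at germ ring and no read at 1k-cell (at least 751-fold higher). The homeobox gene mxtx1 had 3092 and 1.90 from 2 reads (1626-fold, 450 to 13434), apoeb was given above, and mttp (listed as mtp), which loads lipid onto lipoproteins, had 1389 and 0.951 from 1 read (1461-fold, 262 to 57771). The lower genes were rbp4 (no read and 14.3), the fibronectin gene fn1a (listed as fn1, 830 and 2650) and rbp4l (30.1 and 65.6). Rbp4l fell within 2-fold after rescaling (log2 -0.70).

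Of 38 compared oocyte and egg genes 16 were lower (42.1%, against 34.2% over all genes) and 1 was higher (median log2 ratio -0.60, against -0.43). After rescaling 12 were lower and 2 higher. The higher one, stm, is known for an otolith matrix protein; it had 20700 at germ ring and 1.90 at 1k-cell from 2 reads, and no read in the egg. The list counts 13 compared zona pellucida genes, which encode the egg coat. All 13 were within 2-fold, with log2 ratios from -0.58 to 0.33, so every lower gene came from outside this family. Among them zp3 had 753 and 601. Near-identical zona pellucida genes may share reads.

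The lowest ratios of this list were those of 3 genes. The APC/C inhibitor fbxo43 (listed as zgc:66488) had 1144 at germ ring and 12127 at 1k-cell (10.6-fold lower, 9.85 to 11.4), the meiotic kinase mos 253 and 1881 (7.43-fold), and the deadenylation factor btg4 921 and 6453 (7.01-fold). Cth1, a zinc finger gene, had 8850 and 55516 (6.27-fold lower) after 160517 in the egg. The mitotic cyclin ccnb1 was within 2-fold (27401 and 32667).

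None of the 22 compared germ plasm, piRNA and meiosis genes was higher and 12 were lower (54.5%, against 34.2% over all genes). The median log2 ratio was -1.01, or -0.60 with 1 higher and 9 lower after rescaling. The methyltransferase henmt1, spo11 and tdrd9 (listed as si:dkey-15f17.9) had the highest log2 ratios, 0.65, 0.40 and 0.36. The germ cell helicase ddx4 (listed as vasa, 6783 at germ ring and 5450 at 1k-cell) and the Piwi gene piwil1 (1520 and 1292) were within 2-fold. The germ plasm genes dazl (381 and 1321, 3.46-fold lower), dnd1 (listed as dnd, 660 and 2174, 3.29-fold) and tdrd7a (listed as tdrd7, 2008 and 7988, 3.98-fold) were lower, as was nanos3 (1047 and 2339), within 2-fold after rescaling. The lowest were rgs14a (380 and 2041), ca15b (949 and 4245) and tdrd1 (1141 and 4971).

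Genes for mRNA decay and deadenylation were lower in 22 of 53 cases (41.5%, against 34.2% over all genes) and higher in 3. The median log2 ratio was -0.70, against -0.43 over all genes, and 16 were lower and 6 higher after rescaling. Of 15 genes for deadenylases and their partners none was higher and 6 were lower, or 3 after rescaling. Over all genes 34.2% were lower, or 2749 of 10917 after rescaling, so the count of lower genes is not read as particular to these 15. The catalytic subunit cnot7 had 175 at germ ring and 1845 at 1k-cell (10.6-fold lower, 8.75 to 12.8), whereas its relative cnot8 was within 2-fold (11271 and 16558). The decapping cofactor lsm1 had 244 and 2400 (9.83-fold lower), and igf2bp2a 55.7 and 492. Of 6 genes for small RNA processing and Argonaute proteins 5 were lower, among them dicer1 (2959 and 9193) and drosha (listed as rnasen, 351 and 1640). The higher genes were zfp36l1b, which binds AU-rich elements (478 and 25.7, 18.6-fold), and the Elav genes elavl1b (listed as hug, 1913 and 577) and elavl1a (listed as elavl1, 32292 and 14405).

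Among 20 genes of DNA methylation and its removal, 9 were higher (45%) and 4 lower (20%), against 16.0% and 34.2% over all genes. The median log2 ratio was 0.37. The maintenance methyltransferase dnmt1 had 4851 at germ ring and 27780 at 1k-cell (5.73-fold lower, 5.52 to 5.94) after 58757 in the egg. The de novo methyltransferases dnmt3ba (listed as dnmt7, 10988 and 4629) and dnmt3bb.2 (listed as dnmt3, 8534 and 4126) were 2.37-fold and 2.07-fold higher, and dnmt3ab (listed as dnmt6, 12.1 and 49.4) was 4.1-fold lower. Of 6 gadd45 genes, stress genes linked to demethylation, 5 were higher, led by gadd45ba (3015 and 31.4, 96.1-fold), gadd45ga (listed as gadd45g, 598 and 5.70) and gadd45aa (265 and 3.80). The glycosylase tdg.1 (listed as tdg) had 1712 and 61.8 (27.7-fold higher).

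No Polycomb or Trithorax gene of 43 was higher and 20 were lower (46.5%, against 34.2% over all genes). The median log2 ratio was -0.83, against -0.43 over all genes, and 3 were higher and 17 lower after rescaling. The highest ratios were those of cbx7a, rbbp7 (listed as rbb4l) and cbx2, at 0.88, 0.66 and 0.61. The methyltransferase ezh2 was within 2-fold (7813 at germ ring and 6817 at 1k-cell). The genes cbx8b (237 and 3088, 13.1-fold lower), phc2b (218 and 1316) and bmi1a (1293 and 7229), all of Polycomb complex 1, were the lowest, followed by the Trithorax gene kmt2a (listed as mll, 1825 and 10021, 5.49-fold lower).

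Histone, linker histone and HMG genes were higher in 16 of 33 cases and lower in 3 (median log2 ratio 0.91). A linker histone listed as histh1l had 5490 at germ ring and 22.8 at 1k-cell (241-fold higher), hmgb3a 4231 and 62.7, h2ax (listed as h2afx) 972 and 89.4, and the replacement histone h3f3a 73742 and 16318 (4.52-fold). The lower genes, hirip3 (1178 and 9102), asf1bb (175 and 1005) and nasp (9459 and 31985, 3.38-fold), are known for handling histones outside the nucleosome. Most replication-dependent histone transcripts lack the poly-A tail used for selection.

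Cell cycle genes gave 11 of 65 higher (16.9%) and 16 lower (24.6%), against 16.0% and 34.2% over all genes. The median log2 ratio was -0.11, and 0.29 after rescaling, which called 15 higher and 13 lower. Among the highest were e2f7 (1303 at germ ring and 3.80 at 1k-cell, 343-fold, 133 to 1261) and the cyclin D gene ccnd1 (46109 and 194, 238-fold). So were ccne2 (9138 and 78.0, 117-fold) and the CDK inhibitor cdkn1ca (listed as cdkn1c, 2980 and 34.2). The other cyclin E gene, ccne1, abundant in the egg (30453), was level (21973 and 18460). The CDK1-inhibiting kinase wee1 had 4335 and 559 (7.75-fold higher), and wee2, its oocyte form, had 3840 and 11357 (2.96-fold lower). The lowest were cdc25d (1.51 from 1 read and 26.6), mdm4 (1204 and 8038) and pkmyt1 (166 and 1002).

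DNA replication genes were lower in 15 of 48 cases and higher in 5, shares of 31.2% and 10.4% that lie near those over all genes (median log2 ratio -0.42, or 0.11 under upper-quartile scaling). After rescaling 8 were lower and 7 higher. The helicase subunit gene mcm6 had 4970 at germ ring and 10.5 at 1k-cell (475-fold higher, 265 to 953) and mcm3 had 2629 and 31.4 (83.8-fold, 59.4 to 122). Their relatives were level or lower: mcm6l had 6201 and 7694, and mcm3l 845 and 3429 (4.06-fold lower). The kinase activator dbf4 (1336 and 336) was the third highest, and mcm4, mcm5 and mcm7 were within 2-fold. The genes rfc1 (633 and 4169), ticrr (1499 and 8257) and pold2 (229 and 941) were the lowest.

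General transcription genes were largely level: 65 of 83 lay within 2-fold, 2 were higher and 16 lower; their median log2 ratio was -0.28, and 0.12 after rescaling. The higher ones were polr3gla, given above, and its relative polr3glb (121 at germ ring and 19.0 at 1k-cell), followed by polr1b (log2 ratio 0.94). The lowest were the TBP-like gene tbpl2, known from oocytes (115 and 1082, 9.45-fold lower), gtf3c2 (234 and 1783) and med19b (25.6 and 184). The TATA-binding protein gene tbp had 4512 and 12790 (2.83-fold lower).

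Few genes for making protein were lower. Of 74 cytosolic ribosomal protein genes 36 were higher and none lower (median log2 ratio 0.96; 56 higher and none lower after rescaling). Among them rpl4 had 7648 at germ ring and 1820 at 1k-cell (4.2-fold higher), rplp0 7471 and 1781, and rplp1 4238 and 1199; rps8b, rps29 and rps28 had the lowest log2 ratios, -0.55, -0.54 and -0.42. In the nucleolar list 18 of 71 genes were higher and 1 lower (median 0.45; 31 and 1 after rescaling), led by dimt1l (1380 and 23.8, 58.1-fold), nifk (listed as mki67ip, 4353 and 247) and rrp15, with taf1b (354 and 964), utp11 and polr1d lowest.

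Translation factor genes gave 11 of 59 higher (18.6%, near the share over all genes) and 1 lower (median log2 ratio 0.46). After rescaling 24 were higher and none lower (median 0.86). The elongation factor eef1a1l1 had 267294 at germ ring and 52488 at 1k-cell (5.09-fold higher), eif4a2 999 and 48.5 (20.6-fold) and eef1a1l2 1412 and 207. The cap-binding gene eif4e3 (2302 and 5337), eif3ja and eif2b3 were the lowest. Among 38 proteasome genes 14 were higher and 1 lower (median 0.53). Psmb8a (listed as psmb8), an immune-type subunit, had 36.2 and no read, psmb6 had 475 and 114, and psmd4b 1025 and 271; psmd10 (292 and 1187, 4.06-fold lower), psmb9a and psmd11a had the lowest ratios.

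**Figure D5:**
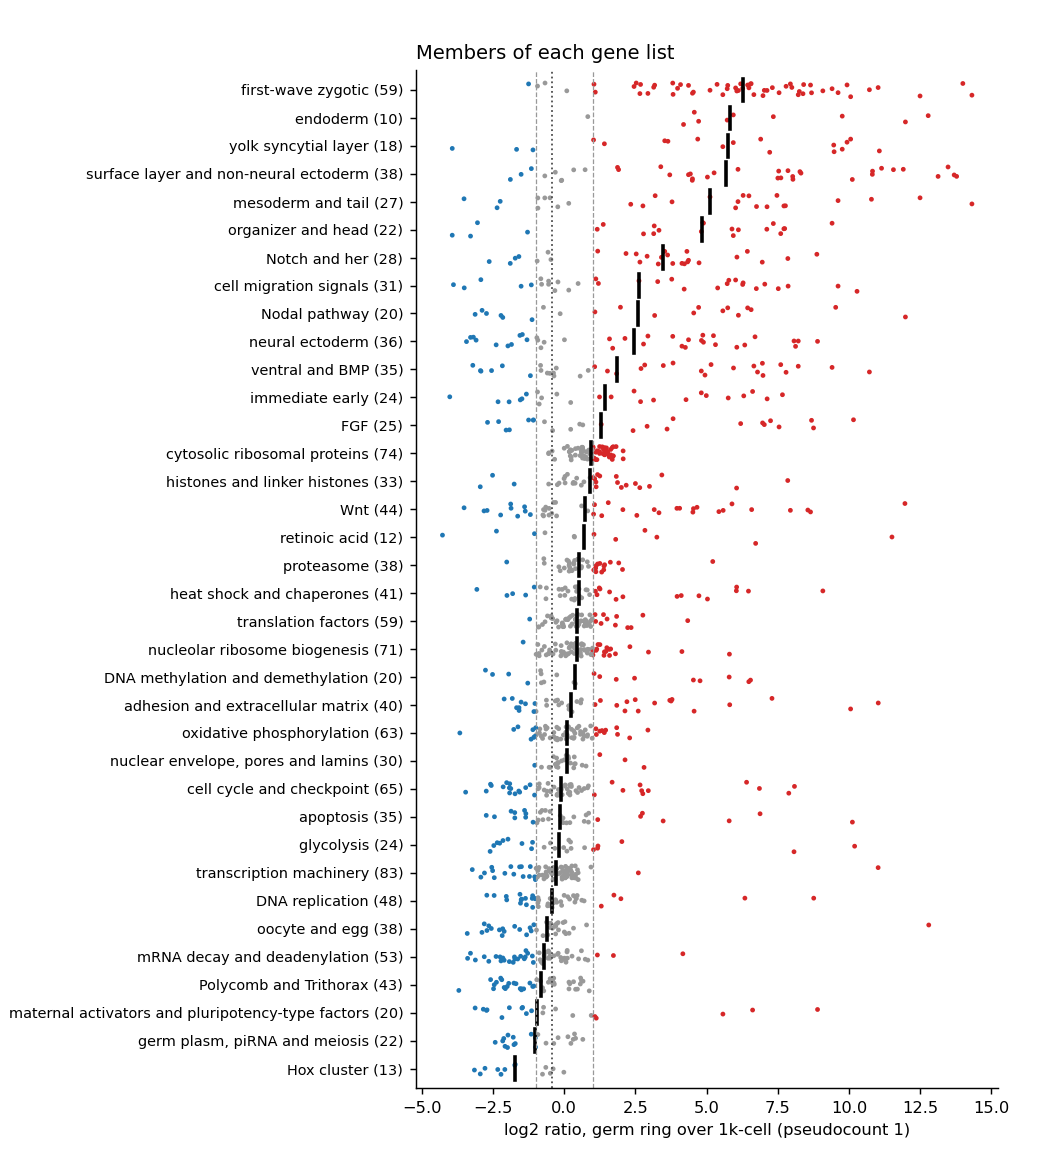
Log2 ratio of germ ring over 1k-cell for every compared member of 36 gene lists, ordered by list median (black bar), with the number of members in brackets. Red points are at least 2-fold higher, blue points at least 2-fold lower and grey points within 2-fold; the dotted line is the median of all genes compared, -0.43. First-wave genes stand at the top (median 6.27) and Hox genes at the foot (-1.74), and ribosomal protein genes form a narrow band near 0.96.

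Calls on energy metabolism genes are given under both scalings. Over all genes rescaling moved 1742 higher and 3732 lower to 2315 and 2749. Oxidative phosphorylation gave 10 of 63 higher (15.9%, near the 16.0% over all genes) and 8 lower (median log2 ratio 0.09). After rescaling 18 were higher and 3 lower (median 0.50). At the top were ndufa6 (116 at germ ring and 14.3 at 1k-cell), ndufs6 (336 and 67.5) and ndufa5. At the foot were ndufb5, ndufa11 (234 and 801) and atp5mea (listed as atp5ia, 84.4 and 1082, 12.8-fold lower). Glycolysis gave 6 of 24 higher (25%, against 16.0% over all genes) and 9 lower (37.5%, against 34.2%). The median was -0.17 (0.22 after rescaling, with 7 higher and 7 lower). The hexokinase hk1 had 523 and 0.951 from 1 read while hk2 had 381 and 2121 (5.56-fold lower). Eno4 (listed as zgc:153973) was also among the highest, and tpi1a (405 and 2466) and pgam1a (622 and 3182) were the other lowest.

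Adhesion and matrix genes were higher in 16 of 40 cases (40%) and lower in 9 (22.5%), against 16.0% and 34.2% over all genes. The median log2 ratio was 0.22, and 6 were lower after rescaling. Protocadherin pcdh18b had 2085 at germ ring and no read at 1k-cell (at least 731-fold higher), while pcdh18a had 90.4 and 190. The hyaluronan synthase has2 had 5114 and 3.80 (1345-fold, 525 to 4938) and the laminin lamb1a 604 and 2.85. The N-cadherin gene cdh2 had 2671 and 608 (4.39-fold higher). Cdh11, cdh5 and fn1a were the lowest.

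Genes that guide moving cells were higher in 18 of 31 cases and lower in 5 (median log2 ratio 2.62). Of the 31, 10 were under 10 at 1k-cell, so they were compared only through germ ring and could not be called lower. The chemokine receptor genes cxcr4a (10545 at germ ring and 199 at 1k-cell, 53.1-fold), cxcr4b (7090 and 168, 42.1-fold) and cxcr7b (2427 and 0.951 from 1 read, 2553-fold, 458 to 100897) and their ligand cxcl12a (530 and 1.90) were all higher. Aplnra and the small GTPase gene rnd1b (listed as rnd1l, 2222 and 8.56) were the other top members. The apelin ligand apln had 1.51 and 18.1, unlike its receptors. The platelet-derived growth factor gene pdgfab (1.51 and 27.6) and the receptor gene pdgfra (4.52 and 80.8) were the lowest. The ligand gene pdgfaa was also lower (10.5 and 24.7), but within 2-fold after rescaling.

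In the apoptosis list 7 of 35 genes were higher (20%) and 9 lower (25.7%), against 16.0% and 34.2% over all genes. The list's median log2 ratio was -0.14, and 0.27 after rescaling, which called 11 higher and 6 lower. The stress-response genes sesn3 (5341 at germ ring and 3.80 at 1k-cell, 1404-fold), phlda3 (563 and 3.80) and gadd45aa were the highest. The lowest was mdm4, with 1204 and 8038 (6.68-fold lower). Cflara (listed as cflar, 64.8 and 358) and the caspase inhibitor xiap (716 and 2611) followed mdm4 at the foot.

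Heat shock and chaperone genes gave 15 of 41 higher and 5 lower (median log2 ratio 0.52), or 19 and 3 after rescaling (median 0.92). Beside hspb1, hsp70l had 256 at germ ring and 1.90 at 1k-cell from 2 reads, and the stress factor atf4b (listed as atf4b2) 4045 and 59.9. The constitutive chaperone hspa8 had 164478 and 54527 (3.02-fold higher). The co-chaperones dnajb1a (337 and 2838, 8.41-fold lower), dnajc3a and dnajb11 were the lowest. Immediate early genes gave 13 of 24 higher and 6 lower (median 1.44), from ier5 (7910 and 38.0), cyr61 (139 and no read) and mych at the top to jund, fosl2 and egr2b (no read and 15.21) at the foot. Nuclear envelope, pore and import genes changed little, with 26 of 30 within 2-fold. The genes kpna3 (729 and 103.6), lmna (759 and 172) and lmnb2 were higher. Nup160 (listed as zgc:66306) was lower, but within 2-fold after rescaling (log2 -0.63), and nup35 and tprb came next to it.

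The libraries shared much of their abundant RNA: 322 of the 500 genes with the highest counts at germ ring were also among the top 500 at 1k-cell. The highest counts at germ ring belonged to eef1a1l1, the chromatin gene hmga1a (206878 at germ ring and 51473 at 1k-cell), the RNA-binding hnrnpa0b (listed as hnrnpa0, 170118 and 21349), hspa8, khdrbs1a, cirbpb, marcksl1b (listed as zgc:85717, 110397 and 2098, 52.6-fold higher), ddx5, pnrc2 and the connexin gjc4b (listed as cx43.4). The highest at 1k-cell belonged to nanog, lamp2, cth1, hspa8, ctnnb2, eef1a1l1, hmga1a, sox19b, hnrnpabb and the profilin pfn2b (listed as pfn2, 20031 at germ ring and 46437 at 1k-cell). Among the most even of the genes in both top sets were mta2 (9040 and 9044), ube2na, chtopa, dnttip2, sox11b, fam76b, eloa, eif3s10 and hsp90b1 (9620 and 9481).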

How the data were processed

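The RNA tables hold 1 value per gene entry, a signal that the authors made, per the file headers, as a read count scaled by the TMM method. The submitters' processing notes name the Zv9 (danRer7) build, BWA 0.6.1-r104 as a tool, and edgeR; annotation, counting tool, strand and filter settings have no source here. In each library 100% of the values were whole multiples of 1 step within 0.01 reads, which gave back the reads. With 1 library per stage a count test on those reads is not possible, so none was run.

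Tables were joined on gene name, and 15328 entries gave 14244 names. For 718 names with several entries the one with the highest sum over the 4 RNA libraries was kept. Current symbols came from the RefSeq gene table (13618 names matched, 626 did not). Sharing all 4 values with another name were 1224 names, so copies may share reads. Ratios used a pseudocount of 1 and a floor of 10 in either library. Intervals are exact Clopper-Pearson 95% intervals (scipy 1.17.1). The arithmetic was tested on simulated data. The gene lists and members were chosen with earlier results of these data known; 12 wrong name matches were dropped from them, and the grouping by role was made after values were seen. Named genes are list members, 3 from each end of every list at least, and outside the lists the 20 highest and 20 lowest ratios, the 10 highest levels per library and the 10 most even genes in both top 500. The alternatives were other pseudocounts, floors and cutoffs, and scaling to equal totals, upper quartiles or the median of ratios. A few genes that this rule would name are not reported here.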

Additional observations from a re-analysis of the deposited data

How the results depend on the processing

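With 1 library a stage, depth limits the scarce genes most: 3 reads are 4.52 normalized counts at germ ring and 2.85 at 1k-cell. The count of higher genes stayed between 1306 and 2575 under every other pseudocount, floor and scaling tried, and was 1117 at a 4-fold cutoff. The count of lower genes stayed between 2749 and 4253, except for 2463 under upper-quartile scaling and 1457 at a 4-fold cutoff. The median log2 ratio of -0.43 became -0.0274 with median-of-ratios scaling and 0.0943 with upper-quartile scaling. Requiring the counting interval to pass 2-fold left 1371 higher and 2779 lower genes. Of 1302 listed or named genes, 689 were past 2-fold; median-of-ratios scaling took 67 of these within 2-fold and brought 94 others past it, upper-quartile scaling 80 and 121, and no gene past 2-fold changed sign under any of these alternatives. List medians that changed sign all lay within 0.5 of 0. For the markers of testis the median of -0.38 became 0.02 under median-of-ratios scaling. No paired analysis was possible because each stage has 1 library. The search of promoters for short motifs was not run, since no promoter sequences were at hand.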

Other observations

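Some duplicate genes differed in direction between the libraries. Among 705 pairs of compared genes whose names differ only in a final a or b, which in zebrafish usually marks duplicates and in some families, such as tfap2a and tfap2b, is the family's own lettering, 74 had one member at least 2-fold higher at germ ring and the other at least 2-fold lower (69 after median-of-ratios scaling). Both members were higher in 43 pairs, both lower in 103 and both within 2-fold in 195. The median difference in log2 ratio within a pair was 1.25, and 84 pairs differed by 4 or more. Of the 1410 genes in these pairs 258 (18.3%) were higher and 472 (33.5%) lower, near the shares over all genes, and the number of opposite pairs is not read as particular to duplicates. The pairs were looked at after their values were seen.

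Some examples outside the gene lists were chosen after their values were seen. The glycosyltransferase b3gnt5a had a log2 ratio of 10.71 and b3gnt5b of -1.24 (within 2-fold after median-of-ratios scaling). The small GTPase gene arl4ab had 6.69 and arl4aa -3.94, the chromatin gene morc3b 8.83 and morc3a -1.47, and the signal transducer stat1b 4.47 and stat1a -3.71. In the lists, foxc1a and foxc1b (7.77 and -2.25) and bmp7a and bmp7b (5.94 and -2.55) differed in the same manner. So did the list member gata2a and gata2b, which is outside the lists (6.10 and -1.91).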
